A study of Mus musculus with 6 samples.

Results

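The genes described here are 7 antiproteases of myeloid cells, Slpi, Wfdc17, Wfdc21, Stfa1, Stfa2, Stfa2l1 and Stfa3, taken by symbol from a table of read counts per mouse gene, in which 7590 genes had a count in the shallowest library and 20592 to 22607 in the others. All 7 had a row in the table. They were chosen by their fold changes in earlier results of these data, where they were higher in Hes1 KO than in WT. The levels and fold changes in that contrast therefore describe the chosen genes. Calls of the members in it are printed only beside the share of all genes called, and nothing is read from them. The labels call the samples mesenchymal stromal cells (MSC) from bone marrow, on a C57BL/6 background, and 3 RNA sequencing libraries carry the label Hes1 KO and 3 the label WT. Mice with a floxed Hes1 allele, named as heterozygous Hes1fl/+ in the labels, had been crossed with Prx1Cre mice. In that line the Prx1 promoter and enhancer drive Cre in limb bud mesenchyme and part of the craniofacial mesenchyme. The sources used here do not give the number of deleted alleles, whether the WT mice carried Cre or a floxed allele, the age of the mice or any culture step. Nor do they tie each library to its own animal, so the spread between libraries, and any p-value from it, may be partly technical.

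Neutrophils and macrophages store and release proteases that can damage the tissue around them, and they also make inhibitors of these enzymes. Slpi, the secretory leukocyte protease inhibitor, is built of whey acidic protein (WAP) domains and blocks serine proteases such as neutrophil elastase and cathepsin G. Wfdc17 and Wfdc21 encode small secreted proteins with a WAP domain, and Wfdc17 is also known as Amwap, after its expression in activated mouse macrophages and microglia. Stefins are cystatins without a signal peptide that block cysteine cathepsins inside the cell. Mice carry a cluster of stefin A genes, which are expressed in neutrophils among other cells, where humans have the single gene CSTA.

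The libraries differed in depth and in their cell markers. Hes1 KO libraries held 20563116 to 22131465 counts, WT replicate 2 held 5812598 and WT replicate 3 held 12109170. WT replicate 1 held 66167 counts, so its single count was worth 15.1 CPM (the usual scaling of counts to the library total) and its values are shown apart. The targeted gene Hes1 had CPM of 8.36, 10.4 and 12.4 in the Hes1 KO libraries, in the order of their numbers, 53.3 in WT replicate 2, 28.5 in replicate 3 of WT and 0 counts in its replicate 1. Defining stromal genes were nearly absent. Prrx1 had 0 to 2 counts in every library, and the 15 stromal markers summed to 0.00851% to 0.0967% of counts. Neutrophil markers (15 genes) took 4.9%, 13.5% and 6.03% of the counts of the Hes1 KO libraries. In WT they took 0.79%, 1.55% and 0.0369% of replicates 1, 2 and 3. Erythroid markers took 42.5% of WT replicate 3 and at most 0.323% of any other library. The Y-linked gene Ddx3y reached 205 CPM in WT replicate 2 and 42.2 CPM in WT replicate 3. Across Hes1 KO it had 1.27, 61.9 and 0.146 CPM, so libraries of 1 group differed in it too. WT replicate 1 had 0 counts of it, which allows up to 45.3 CPM. Xist, also sex-linked, stood at 2055, 3.1 and 71.9 CPM for WT replicates 1, 2 and 3, against 1221, 11 and 1004 across Hes1 KO. Without WT replicate 1, both WT libraries thus carried Ddx3y, while Hes1 KO replicates 1 and 3 had high Xist and little Ddx3y. The part of sex in the contrast was not tested.

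Among the WAP-domain genes, Slpi had 2457, 5973 and 2538 counts in Hes1 KO replicates 1, 2 and 3, which made 111, 282 and 123 CPM (mean 172 ± 95.4, SD, n = 3). Slpi had 185 counts (31.8 CPM) in WT replicate 2 and 24 (1.98 CPM) in WT replicate 3. Every Hes1 KO library was thus above both of these WT libraries, and the WT libraries were themselves 16.1-fold apart. The Hes1 KO mean was 5.41-fold the level of WT replicate 2 and 86.9-fold that of WT replicate 3. WT replicate 1 had 0 counts of Slpi, which allows up to 45.3 CPM (3 counts), while the lowest Hes1 KO level would have given it 7.35 counts.

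Wfdc17 had 554, 1326 and 453 counts in Hes1 KO, making 25, 62.6 and 22 CPM (mean 36.6 ± 22.6, SD, n = 3), against 9 counts (1.55 CPM) in WT replicate 2 and 3 counts (0.248 CPM) in WT replicate 3. The groups did not overlap in these 5 libraries, and the highest value was again that of Hes1 KO replicate 2. Summed over libraries, the level in Hes1 KO was 54.6 times that in WT replicates 2 and 3 (95% interval of the counting error 31.2 to 106). Over WT replicate 2 alone, the Hes1 KO mean of Wfdc17 was 23.6-fold. In WT replicate 1 Wfdc17 had 0 counts, and the lowest Hes1 KO level would have given 1.46 counts there, so that library could not show a difference.

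Wfdc21 was the most abundant member in Hes1 KO, while Slpi was above it in WT replicates 2 and 3. It had 4756, 13897 and 5406 counts in Hes1 KO, making 215, 656 and 263 CPM (mean 378 ± 242, SD, n = 3). It was lower in WT replicate 2, with 183 counts (31.5 CPM), and in WT replicate 3, with 14 (1.16 CPM), again below every Hes1 KO library. WT replicate 1 went against them. Its 17 counts made 257 CPM (95% Poisson interval 150 to 411), which lay between the Hes1 KO libraries, and Wfdc21 was the 1 member with a count in that library. The gene that lies between Wfdc17 and Wfdc21 in the RefSeq annotation (GRCm38.p6), Wfdc18, had 2, 8 and 9 counts in Hes1 KO and 0 in all 3 WT libraries.

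The 4 stefins lie in a cluster on chromosome 16 and were much less abundant. Stfa2l1 had 57, 468 and 89 counts in Hes1 KO, or 2.58, 22.1 and 4.33 CPM (mean 9.67 ± 10.8, SD, n = 3), and 2 counts (0.344 CPM) in WT replicate 2. Stfa1 had 50, 210 and 55 counts, or 2.26, 9.92 and 2.67 CPM (mean 4.95 ± 4.31, SD, n = 3), and 3 counts (0.516 CPM) in WT replicate 2. The SD of Stfa2l1 was larger than its mean, because Hes1 KO replicate 2 stood far above the other Hes1 KO libraries. Stfa3 had 24, 104 and 32 counts, or 1.08, 4.91 and 1.56 CPM (mean 2.52 ± 2.09, SD, n = 3), and 5 counts (0.86 CPM, 95% Poisson interval 0.279 to 2.01) in WT replicate 2. That interval holds the levels of Hes1 KO replicates 1 and 3 and lies below that of Hes1 KO replicate 2. Stfa2 had 9, 53 and 11 counts, or 0.407, 2.5 and 0.535 CPM (mean 1.15 ± 1.18, SD, n = 3), and 0 in WT. WT replicates 1 and 3 had 0 counts of every stefin.

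Few stefin counts came from WT, so ratios over WT were wide. Summed over libraries, the level in Hes1 KO was 86.2 times that in WT replicates 2 and 3 for Stfa2l1 (95% interval of the counting error 23.7 to 713). It was 29.5 times for Stfa1 (9.99 to 144) and 8.98 times for Stfa3 (3.77 to 28). Over WT replicate 2 alone, the Hes1 KO mean was 2.93-fold for Stfa3, below that interval, and 10.6-fold for the 4 stefins together. Stfa2 was at least 6.86-fold higher in Hes1 KO than a floor of 3 counts over WT replicates 2 and 3 together. WT replicate 1 could not show such levels, since the lowest Hes1 KO level of the 4 stefins together would have given it 0.419 counts.

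**Figure D1:**
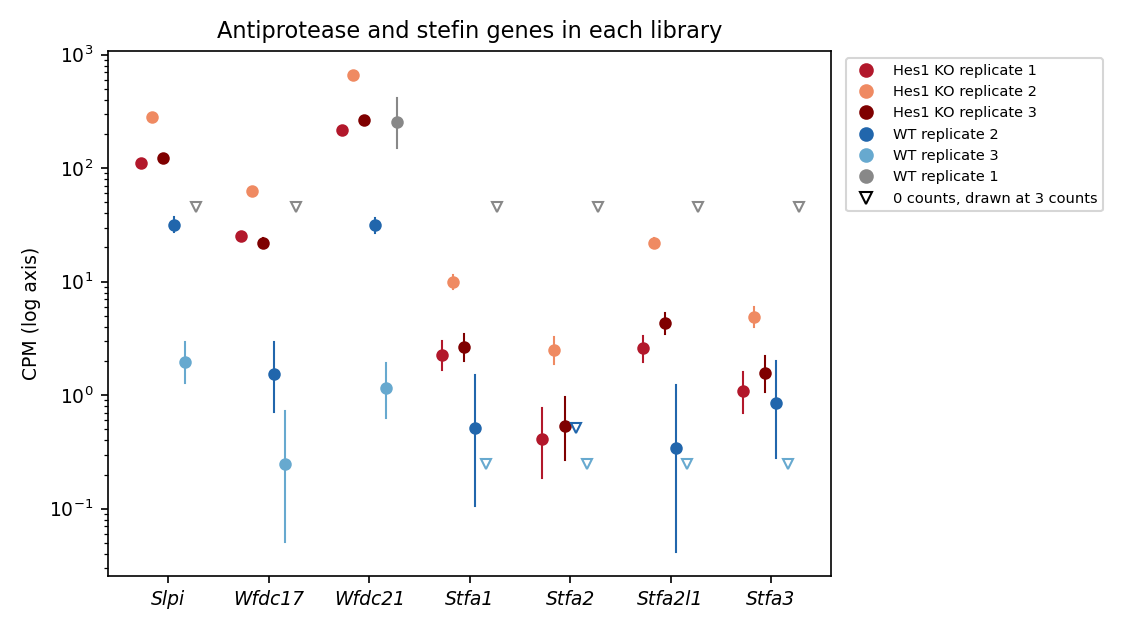
CPM of each of the 7 genes in each library, on a log axis, with bars for the 95% Poisson interval of the count and open triangles for 0 counts, drawn at the level of 3 counts. The 3 Hes1 KO libraries lie above WT replicates 2 and 3 for Slpi, Wfdc17 and Wfdc21, while WT replicate 1 has 257 CPM of Wfdc21 and triangles at 45.3 CPM for the 6 other genes.

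Per length of transcript, the order of mean levels in Hes1 KO was Wfdc21, Slpi, Wfdc17, Stfa2l1, Stfa1, Stfa3 and Stfa2. Wfdc21 was at 871 ± 558 CPM per kb (SD, n = 3), Slpi at 197 ± 109 and Wfdc17 at 68.6 ± 42.5. The stefins followed, with Stfa2l1 at 23.1 ± 25.8, Stfa1 at 9.63 ± 8.38, Stfa3 at 6.11 ± 5.07 and Stfa2 at 2.44 ± 2.5 CPM per kb. Wfdc21 (495 to 1513), Slpi (127 to 322) and Wfdc17 (41.3 to 118) did not overlap in Hes1 KO. From Wfdc17 down each neighbour overlapped the next, with Stfa2l1 at 6.15 to 52.8, Stfa1 at 4.4 to 19.3, Stfa3 at 2.63 to 11.9 and Stfa2 at 0.863 to 5.32, while the order of the 7 genes was the same within each of the 3 libraries. Lengths were those of 1 GENCODE M21 transcript per gene, and the sources used here do not name the transcripts counted by the authors.

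Stefin counts can be split between copies, so their sequences were compared. Stfa2 and Stfa2l1 were 96.0% identical over 373 aligned bases of transcript, while every other pair among the 4 was 80.7% to 83.7% identical. Of the 50-base windows of a transcript, 25.4% in Stfa1, 24.6% in Stfa2l1, 15.9% in Stfa2 and 0% in Stfa3 also occurred in a transcript of another gene. At 100 bases these shares were 1.93%, 0%, 0% and 0%. Slpi, Wfdc17 and Wfdc21 had no shared window of either length. The sources used here give neither the read length nor the treatment of reads that match several genes, so levels of Stfa1, Stfa2 and Stfa2l1 taken singly are uncertain. The sum of the 4 covers windows shared by Stfa2 and Stfa2l1, but not those that Stfa1 shares with BC100530 and BC117090 or Stfa2l1 with Gm49652. The 4 stefins together made 6.33, 39.4 and 9.09 CPM in Hes1 KO, 1.72 CPM in WT replicate 2 and 0 counts in WT replicates 1 and 3.

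The promoters of the stefins are alike as well. The part of this likeness in their levels across libraries was not tested. RefSeq (GRCm38.p6, an earlier build than the GRCm39 of the counts) gave a promoter for 6 of the 7 members, all but Wfdc21. Over the 250 bases before the start, pairs of stefin promoters were 82.9% to 92.3% identical, the closest pair again being Stfa2 and Stfa2l1. The last 100 bases before each start are printed in the direction of transcription, with capitals for TTTAAA. This relative of the TATA box was chosen after the sequences were seen.
Stfa1 (chr16:36277048-36277147, plus strand): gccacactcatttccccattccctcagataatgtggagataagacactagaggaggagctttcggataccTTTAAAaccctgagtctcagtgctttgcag
Stfa2 (chr16:36408364-36408463, minus strand): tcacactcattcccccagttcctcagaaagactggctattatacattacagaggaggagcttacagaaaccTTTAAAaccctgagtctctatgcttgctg
Stfa2l1 (chr16:36156711-36156810, plus strand): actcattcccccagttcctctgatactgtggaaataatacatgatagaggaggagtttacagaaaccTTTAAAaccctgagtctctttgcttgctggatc
Stfa3 (chr16:36455393-36455492, minus strand): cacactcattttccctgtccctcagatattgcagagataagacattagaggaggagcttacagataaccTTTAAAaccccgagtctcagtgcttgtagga
All 4 carried TTTAAA with its first base 29 to 33 bases before the start. Of the 32851 mouse promoters in the same table, 1.42% had TTTAAA beginning 20 to 40 bases before the start, and 12.1% had it anywhere in the 250 bases. TATAAA occurred in none of the 6 member promoters and in 12.4% of all promoters.

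Hes1 is a repressor that binds N boxes and related E boxes, so CACNAG and CACGTG were searched on both strands of the 250 bases before the start. CACNAG was found for Slpi, Wfdc17 and Stfa1, 3 of the 6 members searched, and in 36.7% of all promoters. CACGTG was found for Slpi, 1 of 6, and in 6.02% of all promoters. The 250 bases before the start of Slpi are printed because this was the 1 member with CACGTG, shown in capitals and beginning 146 bases before the start. The CACNAG match of Slpi did not overlap it.
Slpi (chr2:164356508-164356757, minus strand): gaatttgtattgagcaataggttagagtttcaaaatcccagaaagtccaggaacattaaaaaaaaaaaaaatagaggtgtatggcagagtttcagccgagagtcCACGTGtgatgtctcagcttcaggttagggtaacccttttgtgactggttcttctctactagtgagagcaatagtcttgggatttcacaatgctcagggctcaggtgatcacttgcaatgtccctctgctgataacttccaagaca
A match describes the letters and is not evidence of binding. Short motifs of myeloid factors were searched in the same way. TTGCNNAA, a form of the C/EBP motif, was found for Slpi and Stfa1 (9.56% of all promoters), and GAGGAAG, a form of the PU.1 motif, for Wfdc17 and Stfa1 (10.6% of all promoters).

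The fit across all genes (edgeR, quasi-likelihood test, Benjamini-Hochberg adjustment, threshold 0.05) gives the background of these differences. The filter on low counts left 6 of the 7 members with 6 libraries and all 7 without WT replicate 1. Stfa2 was the member removed. With 6 libraries edgeR called 0 of 14756 genes (0%) higher in Hes1 KO, members included. An unadjusted p under 0.05 was found for 2200 genes and 4 members, DESeq2 called 813 genes, of which 232 were higher (1.57%), 4 of the 6 tested members among them, and limma-voom called 0. With WT replicate 2 as the single WT library, edgeR called 17.1% of 17483 genes higher and 3 of 7 members. Without WT replicate 1, edgeR called 7.44% of 16190 genes higher, among them 1 of the 7 members, Wfdc17. Nothing is read from these counts, as the contrast was known when the members were chosen. In 6 libraries the CPM of every Hes1 KO library lay above every WT library for 5 of 6 members, against 24.7% of all genes tested. Without WT replicate 1 this held for 7 of 7 members and 35.1% of genes. Counts of 0 entered these shares as 0 CPM. In WT replicate 1 a 0 allows up to 45.3 CPM, so for Wfdc17 and the stefins its 0 counts do not show a separation. For Stfa2 the 0 of WT replicate 2 allows up to 0.516 CPM, above the 0.407 CPM of Hes1 KO replicate 1. The fitted log2 fold change was above 0 for 6 of 6 members (51.4% of genes) with 6 libraries and for 7 of 7 (50.7%) without WT replicate 1.

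The fitted fold changes show where WT replicate 1 mattered. With 6 libraries the log2 fold change was 5.86 (SE 1.75) for Stfa2l1, 5.23 (SE 0.86) for Wfdc17, 4.34 (SE 1.56) for Stfa1 and 3.73 (SE 1.12) for Slpi. It was 2.69 (SE 1.46) for Stfa3 and 2.64 (SE 1.26) for Wfdc21. Without WT replicate 1 Wfdc21 stood at 4.70 (SE 1.18), since its 17 counts there no longer entered. The other values moved little, from 2.71 (SE 1.42) for Stfa3 to 5.90 (SE 1.71) for Stfa2l1. As 1 feature, the summed stefins had a log2 fold change of 4.63 in both fits (SE 1.63 and 1.66). The median over the members was 4.03 with 6 libraries, against 0.03 over all genes tested. It was 4.70 without WT replicate 1, or 4.37 with Stfa2 set to its bound, against 0.02 over all genes.

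**Figure D2:**
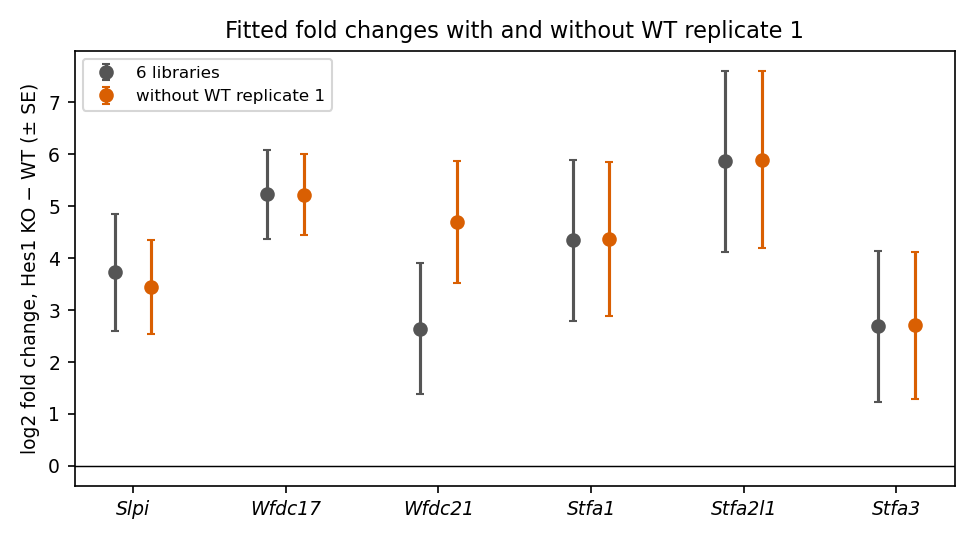
Fitted log2 fold changes of Hes1 KO over WT (edgeR, TMM scaling) with approximate standard errors, with 6 libraries and without WT replicate 1. Stfa2, with 0 counts in WT, is left out, and Wfdc21 moves from 2.64 to 4.70 while the other 5 genes move by less than their standard errors.

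Within Hes1 KO the members shared a profile in which replicate 2 was highest, but by different amounts. Against replicates 1 and 3 combined, the CPM of replicate 2 was 2.41-fold for Slpi (95% interval of the counting error 2.32 to 2.5), 2.66-fold for Wfdc17 (2.44 to 2.89) and 2.76-fold for Wfdc21 (2.69 to 2.83). It was 3.75-fold for Stfa3 (2.68 to 5.28), 4.03-fold for Stfa1 (3.18 to 5.15), 5.34-fold for Stfa2 (3.14 to 9.44) and 6.46-fold for Stfa2l1 (5.36 to 7.84). The interval of the summed stefins, 4.53 to 5.87, thus lay above those of the 3 WAP-domain genes. This compares single libraries, with counting error only. Replicate 2 also differed from replicates 1 and 3 in the sex-linked genes Xist (11 against 1221 and 1004 CPM) and Ddx3y (61.9 against 1.27 and 0.146 CPM). The part of sex in this profile was not tested.

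The neutrophil markers as a whole, Mpo among them, were 2.47-fold higher in Hes1 KO replicate 2, close to the WAP-domain genes. Retnlg and Ly6g, genes of late neutrophils, were 4.42-fold and 4.01-fold higher there, nearer to the stefins. Mpo and Elane, which are made by early granulocyte precursors, went the other way, at 0.319 and 0.376 of the level of replicates 1 and 3. The part of neutrophil number or stage in these levels was not tested.

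**Figure D3:**
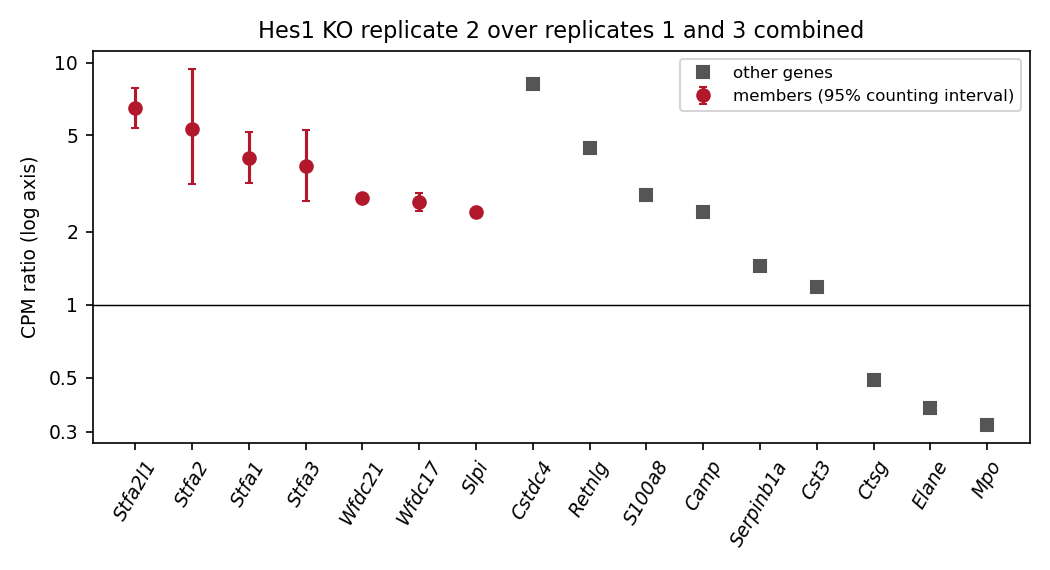
Ratio of CPM in Hes1 KO replicate 2 to CPM in replicates 1 and 3 combined, on a log axis, for the 7 members with 95% counting intervals and for 9 other genes. Stefins range from 3.75 to 6.46 and WAP-domain genes from 2.41 to 2.76, while Ctsg, Elane and Mpo lie below 1.

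In bulk RNA, more neutrophils and more RNA per neutrophil cannot be told apart, so member counts were set against the neutrophil marker counts of the same library. Per 1000 counts of the 15 neutrophil markers, Slpi had 2.27, 2.1 and 2.05 counts in Hes1 KO and 2.06 in WT replicate 2 (95% Poisson interval 1.77 to 2.38). On that scale WT replicate 2 lay within the Hes1 KO range. WT replicate 3 had 5.38 (3.44 to 8), above every Hes1 KO library. Wfdc21 had 4.39, 4.88 and 4.36 in Hes1 KO, 2.04 (1.75 to 2.35) in WT replicate 2 and 3.14 (1.71 to 5.26) in WT replicate 3. Wfdc17 had 0.511, 0.465 and 0.365 in Hes1 KO, 0.1 (0.0458 to 0.19) in WT replicate 2 and 0.672 (0.139 to 1.96) in WT replicate 3. For Wfdc17 the interval of WT replicate 2 lay below every Hes1 KO value, and that of WT replicate 3 held all of them. The summed stefins had 0.129, 0.293 and 0.151 in Hes1 KO and 0.111 (0.0534 to 0.205) in WT replicate 2, an interval that holds Hes1 KO replicates 1 and 3.

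These ratios depended on the markers used. S100a8 and S100a9 made up 51.6% to 59.2% of the marker counts in Hes1 KO, and 0%, 31.1% and 44.7% in replicates 1, 2 and 3 of WT. With the 13 other markers, Slpi had 4.91, 5.14 and 4.23 counts per 1000 in Hes1 KO, 2.99 in WT replicate 2 and 9.72 in WT replicate 3. For Slpi, WT replicate 2 was then below every Hes1 KO library. It was also below them for Wfdc17 (0.145 against 0.755 to 1.14), Wfdc21 (2.95 against 9.01 to 12) and the stefins (0.161 against 0.28 to 0.718). These values of WT replicate 2 rest on 9 counts of Wfdc17 and 10 of the stefins, and no counting interval was taken on this scale. WT replicate 3 was above every Hes1 KO library for Wfdc17 (1.22), below them for Wfdc21 (5.67) and at 0 for the stefins. In WT replicate 1, Wfdc21 had 32.5 counts per 1000 neutrophil marker counts (18.9 to 52), far above any other library, while S100a8, S100a9, Ly6g and Lcn2 were at 0 there. Leaving erythroid markers out of the total of WT replicate 3 raised Slpi there from 1.98 to 3.45 CPM, still below every other library with a count of it.

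**Figure D4:**
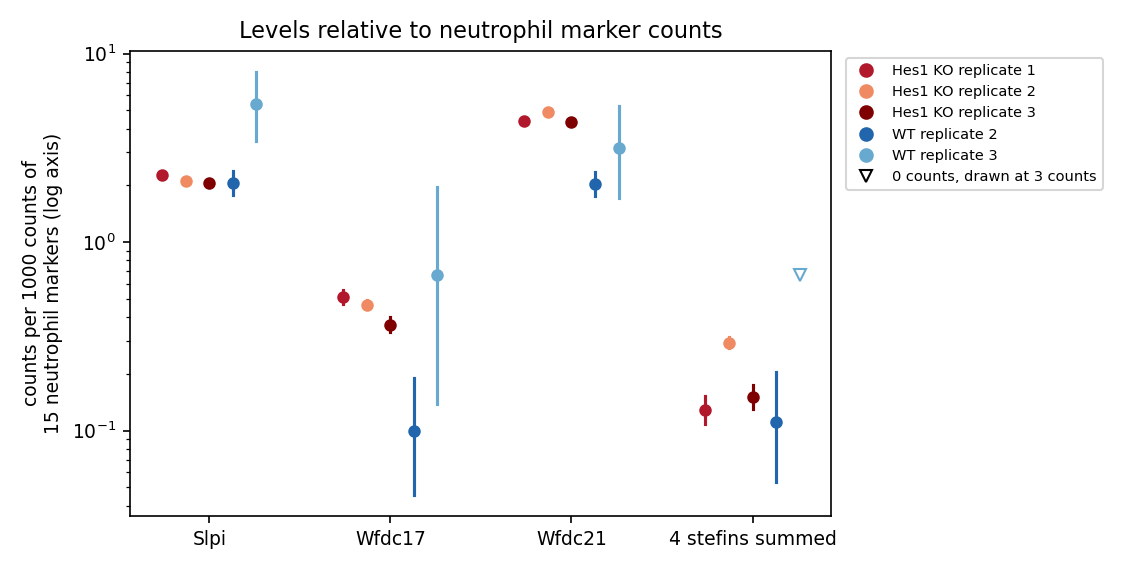
Counts of Slpi, Wfdc17, Wfdc21 and the summed stefins per 1000 counts of 15 neutrophil markers in the same library, on a log axis, with 95% Poisson intervals of the member count. Slpi in WT replicate 2 (2.06) lies among the Hes1 KO libraries, while Wfdc17 (0.1) and Wfdc21 (2.04) in that library lie below them.

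Macrophage and monocyte markers, of interest for Wfdc17, took 0.433%, 0.389% and 0.353% of counts in Hes1 KO. In the WT libraries they took 1.03%, 0.0907% and 0.0164% of replicates 1, 2 and 3, with 8 of the 15 at 0 in WT replicate 1. Within Hes1 KO the sum of these markers was highest in replicate 1, and Wfdc17 in replicate 2. The part of macrophages and monocytes in the level of Wfdc17 was not tested.

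The remaining inhibitors were described by lists. The list of other stefins and cystatins held 24 symbols, among them Gm5483, a synonym of the listed Cstdc4. Of the symbols 12 had a row and 5 were tested without WT replicate 1. All 5 were higher in Hes1 KO (50.7% of all genes), with a median log2 fold change of 2.66 (0.02 over all genes). Of these 5, 1 rose (7.44% of all genes), Cst3, which encodes the secreted cystatin C (log2 fold change 2.66, SE 0.35, quasi-likelihood test of edgeR, adjusted p = 0.0294). Its CPM were 645, 729 and 574 for Hes1 KO, 102 for WT replicate 2 and 45 for WT replicate 3. Its 59 counts in WT replicate 1 made 892 CPM, above Hes1 KO, and with 6 libraries it did not pass (log2 fold change 1.28, SE 0.75, adjusted p = 0.451). Cstb, the stefin B gene, had CPM of 53.6, 66.9 and 47.4 for Hes1 KO, 11.2 for WT replicate 2 and 9.17 for WT replicate 3, and did not pass in either edgeR fit. Neither gene had the profile of the stefin A copies, since Hes1 KO replicate 2 was 1.19-fold and 1.32-fold the other Hes1 KO libraries for Cst3 and Cstb.

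Cst7, which encodes the cystatin F of leukocytes, had CPM of 50.5, 27.5 and 41.8 for Hes1 KO, 23.4 for WT replicate 2 and 3.22 for WT replicate 3. It did not pass in either edgeR fit and was lowest in Hes1 KO replicate 2 within that group. Genes of the stefin cluster itself had a profile closer to that of the members. Cstdc4 had 44, 559 and 94 counts in Hes1 KO, 6 in WT replicate 2 and 0 in WT replicates 1 and 3, and its level in Hes1 KO replicate 2 was 8.17-fold that in the others. Of its 50-base windows 35.6% were shared with another gene. Cstdc5 had 11, 62 and 14 counts in Hes1 KO, 1 in WT replicate 2 and 0 in the others. Neither passed edgeR's test, while DESeq2 with 6 libraries called Cstdc4 (log2 fold change 4.17, adjusted p = 0.022).

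The family of other WFDC genes was almost silent. Of 19, 8 had a row, and 1, Wfikkn1, was tested, with 11 to 44 counts in the deeper libraries and no call by edgeR. Among 16 other inhibitors of leukocytes, 12 were tested without WT replicate 1, of which 2 rose and 1 fell (7.44% of all genes rose and 8.09% fell). Serpinb1a, an inhibitor of neutrophil serine proteases, had CPM of 392, 579 and 414 for Hes1 KO, 154 for WT replicate 2 and 17.8 for WT replicate 3. It rose by 2.38 (log2, SE 0.55, quasi-likelihood test of edgeR, adjusted p = 0.0452). Timp2, an inhibitor of matrix metalloproteinases, rose by 2.87 (log2, SE 0.69, adjusted p = 0.0479). With 6 libraries neither passed in edgeR (adjusted p = 0.31 for both), while DESeq2 called both (adjusted p = 0.0106 for Serpinb1a and 0.0481 for Timp2). The gene that fell, Serpina3f, a serpin named after its values were seen, had 51, 33 and 34 counts in Hes1 KO, 163 in WT replicate 2 and 68 in WT replicate 3 (log2 fold change -3.42, edgeR, adjusted p = 0.0294), and was not called by edgeR with 6 libraries (log2 fold change -3.11, adjusted p = 0.31).

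Proteases of the classes that these inhibitors act on were also described. Of the 5 tested serine proteases 0 passed in either edgeR fit, with an unadjusted p under 0.05 for 0 of them with 6 libraries and for 1 without WT replicate 1, and DESeq2 did not call Elane, Prtn3 or Ctsg. Over all genes tested, an unadjusted p under 0.05 was found for 2200 of 14756 with 6 libraries and for 6442 of 16190 without WT replicate 1. Elane, the neutrophil elastase, had CPM of 782, 294 and 781 for Hes1 KO and 1995, 323 and 3.3 for WT, so the groups overlapped. Prtn3 and Ctsg overlapped through WT replicate 1 alone, with WT replicates 2 and 3 below every Hes1 KO library. Both were, like Elane, lowest in Hes1 KO replicate 2 within that group, where Slpi was highest. Prss57 was also lowest there (42, 20.3 and 35.2 CPM for Hes1 KO), while Mcpt8 was highest there (417, 622 and 330 CPM). The log2 fold change of Elane was 0.13 (SE 1.26) with 6 libraries and 2.06 (SE 1.27) without WT replicate 1. Of 11 cysteine proteases, 4 rose and 0 fell without WT replicate 1 (7.44% of all genes rose and 8.09% fell). With 6 libraries 0 passed in edgeR, and of the 10 tested 4 were higher and 6 lower in Hes1 KO (51.4% of all genes were higher). There 4 of the 10 (2200 of all 14756 genes) had an unadjusted p under 0.05, Ctsh and Ctss, which were higher, and Ctsf and Lgmn, which were lower. The log2 fold changes of Ctsf and Lgmn, both named after their values were seen, were -3.715 and -1.372. DESeq2 with 6 libraries called Ctsh (adjusted p = 0.00192) and Ctss (adjusted p = 0.0462). Without WT replicate 1, Ctsh rose by 2.59 (log2, SE 0.29, quasi-likelihood test of edgeR, adjusted p = 0.0294). Ctss rose by 2.32, Ctsc by 2.09 and Ctsz by 1.57 (same test, adjusted p = 0.0304, 0.0305 and 0.0294). Ctsb, the most abundant of the list over the 5 deeper libraries, had 616 to 629 CPM across Hes1 KO, 178 in WT replicate 2 and 1127 in WT replicate 3, and did not pass. Among the 4 that rose, Ctsc and Ctsz were higher in WT replicate 1 than in every Hes1 KO library. In Hes1 KO the 4 cathepsins that rose varied by less than the members, with replicate 2 at 0.848 to 1.24 of the others.

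Genes with the profile most like that of the members were sought over 5 libraries, as Pearson's r of log2(CPM + 1) with the mean of the 7 members. Among 9423 genes with a mean of at least 10 CPM the closest were Ceacam10 (r = 0.9996), Clec2i (0.9994), Gm20559 (0.9984), Por (0.9984) and Timp2 (0.9982). Ceacam10 had CPM of 13.4, 66.8 and 18.1 for Hes1 KO, 2.92 for WT replicate 2 and 0 for WT replicate 3. As 64 genes had r above 0.99 over these 5 points, the likeness is a description with little resolution.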

How the data were processed

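RNA was measured in 6 libraries labelled as mouse bone marrow MSC, 3 Hes1 KO and 3 WT, prepared with a stranded kit that selects polyadenylated RNA, per the labels' protocols. The deposited table holds raw counts per gene symbol. The deposited table is named for featureCounts. The submitters' processing notes name GRCm39, limma and edgeR. Aligner, annotation, strand setting, read length and versions: not given in the sources used here. Total counts were 66167 to 22131465 per library.

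Counts were filtered with filterByExpr, scaled by TMM and tested with edgeR 4.0.16 in R 4.3.3 (quasi-likelihood, legacy option off, Benjamini-Hochberg adjustment over all genes, threshold 0.05). Standard errors were taken from each fold change and its F value and are approximate. CPM use library totals without TMM factors. Intervals are 95% Poisson or, for ratios, exact binomial intervals and cover counting error only, and a count of 0 was given a limit of 3 counts. Alternatives used DESeq2 1.42.0, limma-voom (limma 3.58.1), other scalings and filters, a replicate block and left-out libraries. Transcripts came from GENCODE M21 and promoters from RefSeq GRCm38.p6, matched by symbol, and were aligned with Biopython 1.88. The code of the fits was checked on simulated counts. Those had less spread between libraries than these data, so the check gives no error rate for them.

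The members, gene lists and naming rule were chosen with earlier results of these data known. All members are named. From each list up to 6 of the most abundant genes could be named, and the marker genes were named after their values were seen.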

Additional observations from a re-analysis of the deposited data

How the results depend on the processing

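The calls depended on the WT libraries and on the test. Leaving out 1 library at a time gave 0 to 2513 called genes and 0 to 1 called members, the higher values coming without WT replicate 1, and a median log2 fold change of the members of 3.03 (without Hes1 KO replicate 2) to 7.10 (without WT replicate 2). The last rests on fitted folds of the 4 stefins over 0 counts, and with these at their bounds (3 counts over WT replicates 1 and 3) it was 4.33. DESeq2 called 813 genes and 4 members (Slpi, Wfdc17, Stfa1 and Stfa2l1), and Cstdc4, Serpinb1a, Serpinb10, Timp2, Ctss, Ctsh and Hes1. As alternatives chosen after seeing the data, WT replicate 2 alone against Hes1 KO called 6210 of 17483 genes and 3 of 7 members (Slpi, Wfdc17 and Wfdc21), assuming that it varies like the other group, and the fit with no filter and without WT replicate 1 called 1913 genes and 1 member. RLE and TMMwsp scaling, library size alone, other filters, limma-voom, the legacy option and summed stefins called 0 genes and 0 members. Library size alone moved the median of all genes to 0.26, from 0.03. No member changed direction under any alternative run. Among the other named genes, Elane was at -0.0107 with RLE scaling, -0.306 with library size alone, -0.00933 with DESeq2 and, with 1 library left out, from -0.429 (without WT replicate 3) to 2.06 (without WT replicate 1). Prtn3 was at -0.0737 with library size alone and, with 1 library left out, from -0.191 (without WT replicate 3) to 2.26 (without WT replicate 1). Ctsc, at -0.27 with 6 libraries, was at 1.22 with limma-voom, 0.97 with the replicate block, -0.776 (without WT replicate 2) to 2.09 (without WT replicate 1) with 1 library left out, 2.27 without WT replicate 1 and without a filter, and 1.76 with WT replicate 2 alone, where Ctsb was at 2.05. The cause of these changes was not tested. With the replicate number as a block 0 genes were called and the median of the members was 4.73. Deviations of same-numbered libraries correlated at 0.153, 0.00704 and 0.244 for replicates 1, 2 and 3. For replicates 1 and 3, but not 2, the same-numbered library was the best match in the other group. The numbers name samples, and they were used as a block only in this alternative. Depth limits the ratios of Wfdc17, with 12 counts in WT replicates 2 and 3, and of the stefins, with 10 for all 4.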
